A study of Mus musculus with 6 samples.

Results

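The piRNA pathway genes described here are Piwil1, Piwil2, Piwil4, Tdrd1, Tdrd5, Tdrd9, Mov10l1, Asz1, Exd1 and Gtsf1. DNA methylation was read at cytosines lying between 2000 bp before and 2000 bp past each gene, in GRCm38 coordinates, and a position was kept where all 6 libraries had 10 or more reads. Of 952515 kept positions in the series, 265 lay in these windows, and 8 of the 10 genes held at least 1. Each gene was divided into a promoter end, which ran from 2000 bp before to 1000 bp inside the gene start, and the remaining gene body. The promoter ends held 115 of the positions, in 4 genes, and the bodies held 150, in 8 genes. The 2000 bp past the genes held 0 kept positions, and Piwil1 and Gtsf1 held 0 anywhere.

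The libraries came from the right testes of mature male mice of the KM strain, 1 mouse per library. In 3 mice (hemicastrated) surgery before puberty had taken away the left testis, and 3 mice had sham surgery (sham). Reduced representation bisulfite sequencing was used, in which the enzyme MspI cuts DNA at CCGG, short fragments are converted with bisulfite, and unmethylated cytosines are then read as thymines. The assay therefore samples CpG-rich fragments and leaves most of each gene unmeasured. The study asked whether methylation of the remaining testis differed after removal of the other one. Whole tissue was used, so a change in the proportion of germ and somatic cells and a change in methylation per cell cannot be told apart.

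piRNAs are small RNAs of the germ line that guide PIWI proteins to transposon transcripts. In the fetal mouse testis the PIWI proteins encoded by Piwil2 and Piwil4 direct DNA methylation to young transposons, and in the adult testis Piwil1 carries the abundant piRNAs of meiotic and later cells. Tudor domain proteins, RNA helicases and proteins of the mitochondrial surface gather these factors in germ granules, where piRNA precursors are cut. Many germline genes are known to carry methylated promoters in somatic cells and unmethylated ones in male germ cells.

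The libraries held 64504011 to 78630942 methylation calls. Kept positions of the piRNA pathway genes had 10 to 211 reads per library, with a median of 56. Mitochondrial DNA, which is hardly methylated, had methylated calls at a rate of 0.478% to 0.617%, which gives the level below which methylation cannot be told from incomplete conversion. As a check of the tissue, the promoter ends of 5 measured maternally methylated imprinted genes, out of 8 listed, averaged 14.96%, 11.99% and 10.8% in hemicastrated 1, 2 and 3, and 13.1%, 11.1% and 10.9% in sham 1, 2 and 3. The imprinted mark of such genes is unmethylated in male germ cells and methylated on 1 allele in somatic cells. Whether each promoter end measured here holds that mark was not tested. The means mix unlike genes, from Grb10, at 0.691% to 1.22% over the libraries, to Nnat, at 27.5% to 38.3%. Promoter ends of 5 measured germline genes known to be methylated in somatic cells, out of 7 listed, averaged 20.7%, 14.7% and 14.7% in the hemicastrated and 15.5%, 14.8% and 12.3% in the sham libraries. Hemicastrated 1 was the highest library in both means, though not in every gene: the promoter end of Tex101 had 7.95% there, against 11.8% and 14.9% in the other hemicastrated libraries. The bodies of 7 of the 8 imprinted genes averaged 31.2%, 29.0% and 26.6% in the hemicastrated and 27.7%, 28.6% and 32.8% in the sham libraries, with sham 3 highest. Of these bodies 4 were higher and 3 lower in hemicastrated mice, and the groups did not overlap in 1, against 7.98% of all bodies. That was Snrpn, at 54.6%, 51.7% and 49.9% in the hemicastrated and 56.5%, 57.6% and 64.2% in the sham libraries. The 1 measured germline body had 6.73%, 2.03% and 6.31% in the hemicastrated and 9.93%, 2.31% and 3.78% in the sham libraries, with sham 1 highest. H19, the listed paternally methylated gene, had no measured promoter end.

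The 4 measured promoter ends differed in sequence and in level. The 250 bases before the transcript start follow 5′ to 3′ on the strand of each gene, from RefSeq, build GRCm38.p6, with every CpG dinucleotide in capitals. They are given because the pair at the top, dense in CpG, was nearly unmethylated, and the pair at the bottom, sparser in CpG, was partly methylated.
Tdrd5, chr1:156303349-156303598, minus strand: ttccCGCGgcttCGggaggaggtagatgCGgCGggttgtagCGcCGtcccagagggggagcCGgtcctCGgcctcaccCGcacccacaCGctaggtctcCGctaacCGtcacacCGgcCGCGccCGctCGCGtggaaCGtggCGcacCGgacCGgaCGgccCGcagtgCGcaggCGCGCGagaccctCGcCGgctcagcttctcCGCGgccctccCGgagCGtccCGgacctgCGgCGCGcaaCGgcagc
Exd1, chr2:119547628-119547877, minus strand: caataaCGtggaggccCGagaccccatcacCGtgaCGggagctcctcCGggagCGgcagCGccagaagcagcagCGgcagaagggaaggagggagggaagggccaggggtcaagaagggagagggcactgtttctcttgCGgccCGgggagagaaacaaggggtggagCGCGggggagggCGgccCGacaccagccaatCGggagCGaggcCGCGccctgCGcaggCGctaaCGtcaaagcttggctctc
Asz1, chr6:18109062-18109311, minus strand: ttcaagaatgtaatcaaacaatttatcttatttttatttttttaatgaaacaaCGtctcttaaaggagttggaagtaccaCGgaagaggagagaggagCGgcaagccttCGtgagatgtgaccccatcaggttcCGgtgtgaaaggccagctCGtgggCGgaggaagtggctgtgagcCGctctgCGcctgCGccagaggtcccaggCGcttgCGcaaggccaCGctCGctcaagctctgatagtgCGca
Tdrd9, chr12:111971309-111971558, plus strand: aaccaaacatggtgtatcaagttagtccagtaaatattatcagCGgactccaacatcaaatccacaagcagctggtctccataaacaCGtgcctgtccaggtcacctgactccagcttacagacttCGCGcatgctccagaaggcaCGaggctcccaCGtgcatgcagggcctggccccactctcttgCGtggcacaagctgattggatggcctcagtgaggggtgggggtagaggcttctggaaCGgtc
These stretches held 40 CpG in Tdrd5, 21 in Exd1, 15 in Asz1 and 8 in Tdrd9. For the others the same stretch held 19 CpG in Mov10l1, 16 in Piwil1, 11 in Tdrd1, 10 in Piwil4 and 7 in Gtsf1. For Piwil2 the gene boundary with more listed positions was taken as the start. Of the kept positions, 14 lay in the stretch shown for Tdrd5, 19 in that for Exd1 and 20 in that for Asz1, while those of Tdrd9 lay after the start.

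Over all genes with 6 to 10 CpG in this stretch, 23.5% of 1753 measured promoter ends had a mean level of 15% or more, against 7.06% of 1771 with 11 to 15 CpG. With 21 or more CpG the share was 2.10% of 3183, and with 5 or fewer it was 49.2% of 1654. Tdrd9 lay in the class of 6 to 10 and Asz1 in that of 11 to 15. The hexamer CACGTG, an E-box, occurred on either strand in the 250 bases of 4 of 9 genes with a RefSeq promoter, namely Piwil1, Tdrd1, Tdrd9 and Mov10l1, and in 6.04% of 27025 promoters. The hexamer TCCCGC, an E2F core, occurred in 1 of 9, Tdrd5, and in 16.9% of all. The pentamer AACNG, a MYB core, occurred in 6 of 9 and in 74.2% of all. CACGTG reads the same on both strands, and no motif contains another. The 250 bases of the 4 genes with CACGTG held 0 kept positions, so methylation at these matches was not measured.

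Tdrd5 (chr1:156255296-156304304, minus strand) encodes a tudor domain protein of the germ granule that is needed to make piRNAs of meiotic cells. Its 38 positions in the promoter end lay 547 to 751 bp inside the gene boundary, and the RefSeq promoter table places a transcript start 956 bp inside it, so the positions lay before that start. The level was 0.479%, 0.266% and 0.280% in hemicastrated 1, 2 and 3, and 0.803%, 0.594% and 0.610% in sham 1, 2 and 3. All 3 hemicastrated libraries were below all 3 sham libraries. The values rest on 13, 7 and 8 methylated reads of 2715, 2636 and 2854 in the hemicastrated libraries, and on 26, 19 and 16 of 3238, 3196 and 2625 in the sham libraries. The means were 0.342% ± 0.119 in hemicastrated and 0.669% ± 0.116 in sham mice (SD, n = 3 each), a difference of -0.327 percentage points. It did not pass the threshold of 0.05 (edgeR quasi-likelihood test over all promoter ends, adjusted p = 0.99). These levels lie around the level of mitochondrial calls, and their Wilson 95% intervals, which cover counting error only, ran from 0.129% to 1.17%. Neighbouring positions share reads, so these intervals may be too narrow.

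Exd1 (chr2:119516505-119547627, minus strand) encodes a partner of tudor domain proteins that promotes piRNA biogenesis. Its 41 positions lay at -384 to -1 bp relative to the gene start, where the neighbouring gene Chp1 starts in the opposite direction at position 119547707 of chromosome 2, so the window is shared. The level was 0.672%, 0.388% and 0.724% in the hemicastrated libraries, and 0.270%, 0.383% and 0.321% in the sham libraries. The groups did not overlap, but hemicastrated 2 and sham 2 differed only in the third decimal, with 15 methylated reads each. The means were 0.594% ± 0.181 in hemicastrated and 0.325% ± 0.0568 in sham mice (SD, n = 3 each), and the difference of 0.270 points did not pass (edgeR, adjusted p = 0.99). Where 20 reads were required at each position, the difference was 0.178 points. Tdrd5 and Exd1 thus differed in opposite directions, both within levels near that of mitochondrial DNA.

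Asz1, also called Gasz (chr6:18050964-18109061, minus strand), encodes an ankyrin repeat protein that ties germ granules to mitochondria. Its 30 positions spanned -98 to 115 bp around the gene start. The level was 23.6%, 19.01% and 19.7% in the hemicastrated libraries, and 14.9%, 22.3% and 16.9% in the sham libraries. Hemicastrated 1 was highest, sham 1 lowest, and the groups overlapped through sham 2. The means were 20.8% ± 2.48 in hemicastrated and 18.0% ± 3.83 in sham mice (SD, n = 3 each), a difference of 2.76 points that did not pass (edgeR, adjusted p = 0.99). Without hemicastrated 1 the difference was 1.35 points, without sham 1 it was 1.20 points and without sham 2 it was 4.90 points.

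The plus and minus DNA strands of the Asz1 promoter end give separate reads after conversion, and they did not rank the libraries alike. Before the gene start, 10 positions of the minus strand, with 42 to 72 reads each, stood at 24.9%, 23.3% and 17.6% in the hemicastrated and 17.5%, 36.0% and 11.3% in the sham libraries. The 10 positions of the plus strand opposite them, with 19 to 39 reads, stood at 21.5%, 3.92% and 16.6% in the hemicastrated and 10.4%, 19.3% and 5.56% in the sham libraries. Sham 2 was therefore the highest library on the minus strand, and hemicastrated 2 the lowest on the plus strand. After the start, 5 positions of the minus strand, with 86 to 155 reads, stood at 23.3%, 18.6% and 21.8% in the hemicastrated and 13.5%, 14.6% and 24.0% in the sham libraries. There sham 3, the lowest library on the minus strand before the start, was the highest. The 5 positions of the plus strand after the start, with 17 to 28 reads, stood at 25.6%, 32.5% and 25.5% in the hemicastrated and 20%, 16.7% and 38.8% in the sham libraries. Neighbouring positions share reads, so each summed value counts 1 read several times and rests on fewer molecules than its sum of reads. The widest single position, at 98 bp before the start, had 23.8%, 22.0% and 17.0% in the hemicastrated and 19.4%, 40.9% and 10.4% in the sham libraries.

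**Figure D1:**
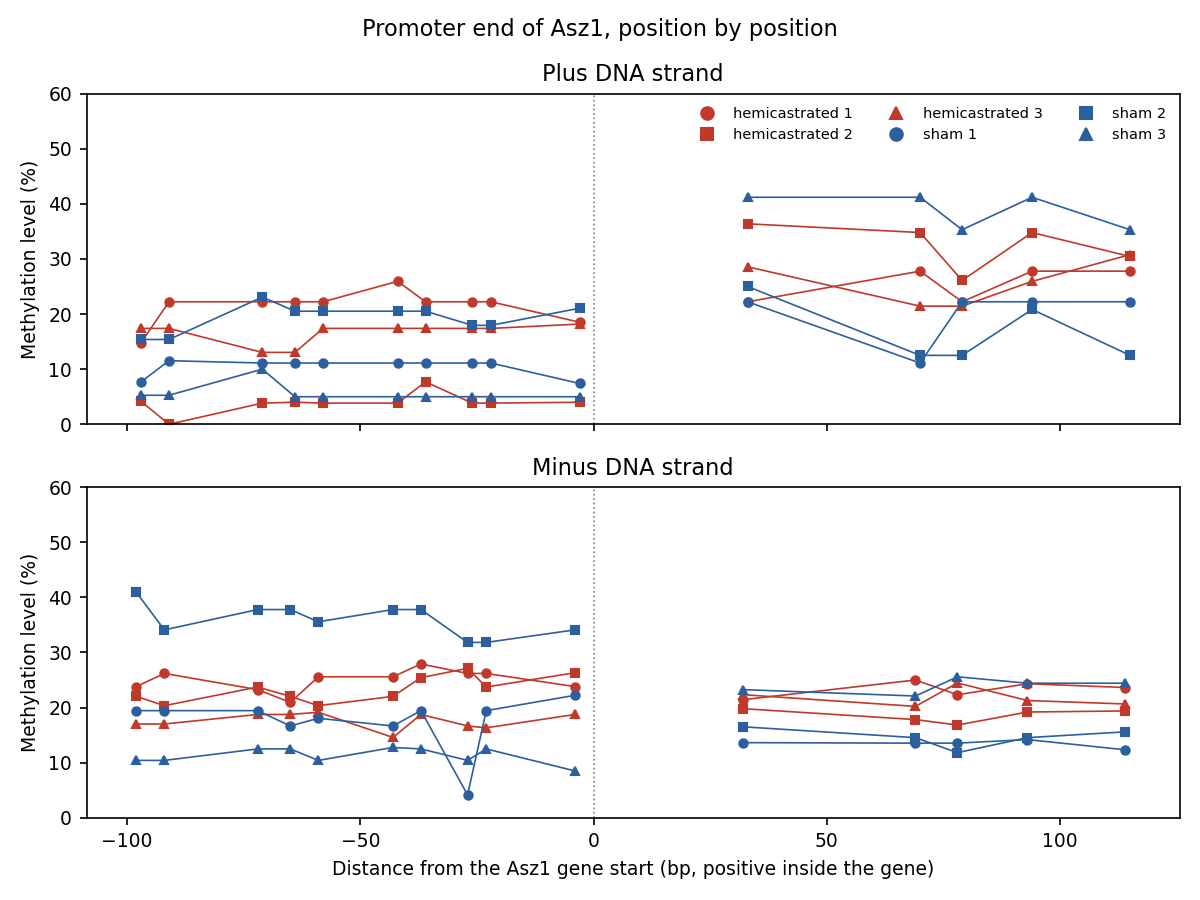
Methylation level (%) of the 30 measured positions of the Asz1 promoter end against distance from the gene start (bp), with 1 line per library and a panel per DNA strand (hemicastrated red, sham blue). Levels of a library mostly stay close along a stretch, with exceptions such as sham 1 on the minus strand, at 4.17% at -27 bp and 19.4% at -23 bp, and the order of the libraries changes between strands and across the start.

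Tdrd9 (chr12:111971488-112068854, plus strand) encodes an RNA helicase with a tudor domain that works with the Piwil4 protein in fetal germ cells. The 6 positions of its promoter end lay 280 to 312 bp inside the gene boundary. The level was 24.7%, 17.5% and 18.2% in the hemicastrated libraries, and 18.9%, 17.5% and 21.9% in the sham libraries. Hemicastrated 1 was highest and hemicastrated 2 lowest, so 1 group enclosed the other. The means were 20.1% ± 3.99 in hemicastrated and 19.4% ± 2.23 in sham mice (SD, n = 3 each), a difference of 0.691 points (edgeR, adjusted p = 1). Without hemicastrated 1 the difference turned to -1.60 points, and without sham 2 to -0.264 points. The widest position, 285 bp inside, had 25.3%, 10.5% and 17.6% in the hemicastrated and 19.6%, 16.5% and 20.8% in the sham libraries. Hemicastrated 1 was the highest library at Tdrd9 and Asz1 and in the mean promoter ends, but not the bodies, of the germline and imprinted lists above. The part of cell composition in these values was not tested.

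In all, 2 of 4 measured promoter ends had groups that did not overlap, while 9.62% of all 14619 measured promoter ends did so. Exd1 was the 1 higher in hemicastrated mice and Tdrd5 the 1 lower, against 5.52% of all promoter ends higher and 4.1% lower without overlap. Of 14607 tested promoter ends, 0 passed (0%) with edgeR and 0 with limma, and 626 had an unadjusted edgeR p under 0.05. The median difference was 0.480 points over the 4 genes, 3 higher and 1 lower in hemicastrated mice, and 0.0260 points over all measured promoter ends. In level, 74.1% of all promoter ends lay below 5%, with a median of 0.646%, as Tdrd5 and Exd1 did. The levels of Asz1 and Tdrd9 exceeded those of 81.6% and 81.7% of all promoter ends, in a range of 15% to 25% that held 4.17% of them.

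**Figure D2:**
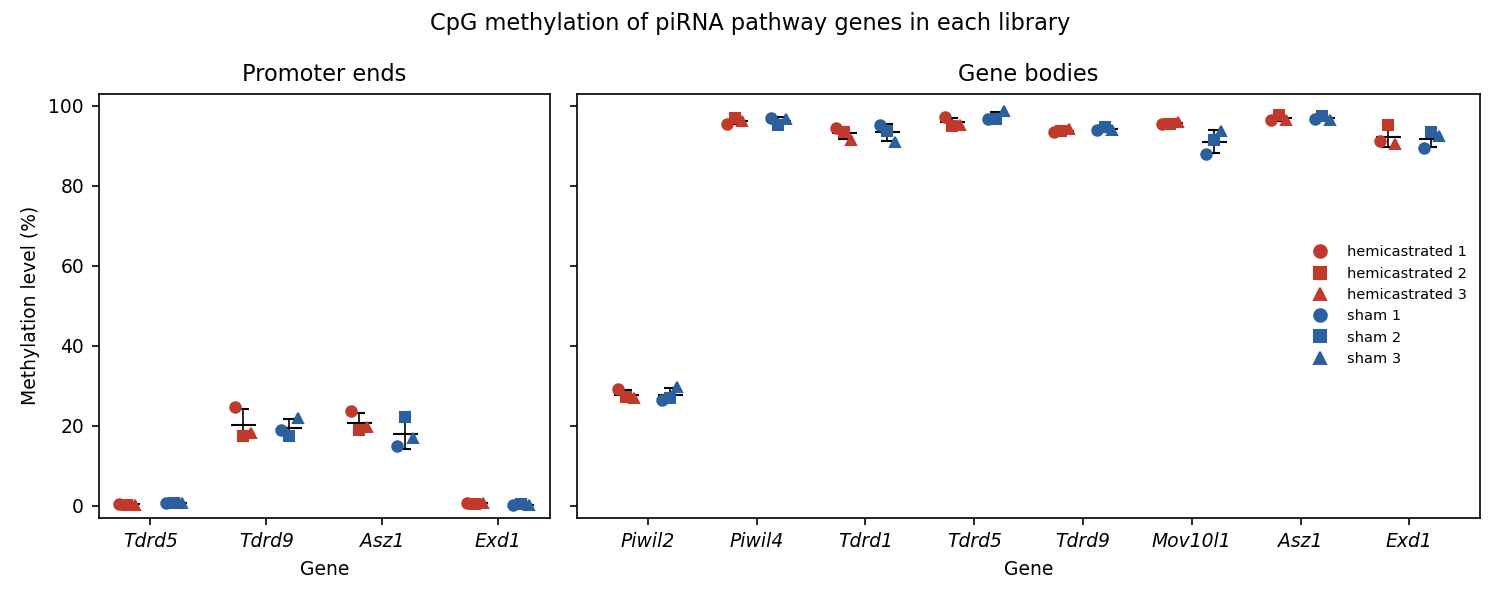
Methylation level (%) of each measured promoter end (left) and gene body (right) in every library, with group means and SD (n = 3 each) as black bars (hemicastrated red, sham blue). Tdrd5 and Exd1 promoter ends lie near 0, Tdrd9 and Asz1 between 14.9% and 24.7%, and all bodies except that of Piwil2 at 87.9% or above.

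The promoter ends of 6 genes had no position with 10 reads in all 6 libraries, and they are described from all their calls, a choice made after seeing the data. Piwil1 (chr5:128736071-128755474), the PIWI gene of meiotic and later cells, had 133 calls in all, 10.5% of them methylated (Wilson 95% interval 6.37% to 16.9%). Tdrd1 (chr19:56826171-56870012), whose tudor domain protein binds the Piwil2 protein, had 229 calls, 17.0% methylated (12.7% to 22.4%). Gtsf1 (chr15:103402458-103430445), which encodes a zinc finger protein needed for PIWI function, had 84 calls, 15.5% methylated (9.27% to 24.7%), in a window shared with the lncRNA gene Gm52195. Mov10l1 (chr15:88982891-89055152) encodes the RNA helicase that hands piRNA precursors to processing, and its window, shared with Mlc1, had 712 calls, 11.7% methylated (9.50% to 14.2%). All 4 intervals, taken over the summed calls of 6 libraries, lie below 25%, but not every library did. Neighbouring positions share reads and mice differ, but the intervals treat calls as independent, so they are too narrow. The same holds for shared reads in the intervals of single libraries. Gtsf1 stood at 27.3%, 5.56% and 22.2% in the hemicastrated and 55.6%, 0% and 5.88% in the sham libraries, from 2 to 36 calls each. The interval of its sham 1 value ran from 26.7% to 81.1%. By library, Mov10l1 stood at 5.76%, 26.9% and 9.92% in the hemicastrated and 11.6%, 6.41% and 18.6% in the sham libraries. Hemicastrated 2 was the highest and hemicastrated 1 the lowest, with 78 to 156 calls each.

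The promoter end of Piwil4 (chr9:14701776-14740672), whose PIWI protein enters the nucleus of fetal germ cells, had 57 calls, 56.1% methylated (43.3% to 68.2%). Its libraries held 4 to 14 calls each, at 80%, 78.6% and 14.3% in the hemicastrated and 33.3%, 78.6% and 50% in the sham libraries. The interval of hemicastrated 3 (4.01% to 39.9%) did not overlap those of hemicastrated 2 and sham 2 (both 52.4% to 92.4%). These intervals also treat calls that share reads as independent, so whether the libraries differ was not tested. The level over all calls sums libraries of unlike values, and the groups overlapped. Piwil2 had 53 calls, 94.3% methylated (84.6% to 98.1%), from 1 to 20 calls per library, in a window whose end was chosen by listed positions and is shared with Polr3d. Whether a transcript start of Piwil2 lies in that window was not tested, so its level may not be that of a promoter. The levels of Piwil4 and Piwil2 describe the few fragments sequenced, not the whole window.

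**Figure D3:**
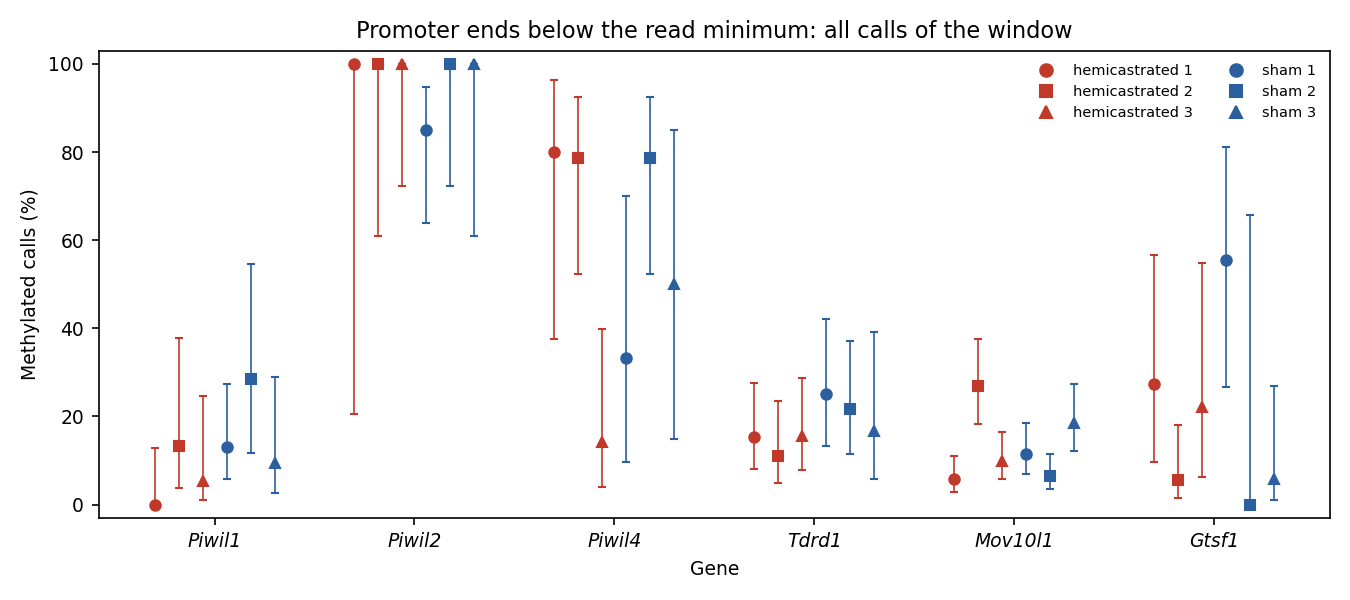
Share of methylated calls (%) over all calls of the promoter ends of the 6 genes below the read minimum, per library, with Wilson 95% intervals as bars (hemicastrated red, sham blue). The intervals of all 6 libraries overlap one another for Piwil1, Piwil2 and Tdrd1, while some of Piwil4, Mov10l1 and Gtsf1 do not. They treat calls that share reads as independent and are too narrow. The window of Piwil2, whose start was set at a gene boundary, lies at 85% or above in every library.

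The gene bodies were highly methylated, with 1 exception. In 7 of 8 measured bodies every library lay between 87.9% and 98.7%. Against all 13779 measured bodies, with a median of 76.1%, these 7 exceeded 72.3% to 98.4% of them. The ranks of Tdrd5 and Exd1 rest on 3 positions each. Without a read minimum, added after seeing the data, the Tdrd5 body stood at 79.1% in hemicastrated and 85.8% in sham mice. Of 13777 tested bodies, 0 passed (0%) with edgeR and 0 with limma, and 473 had an unadjusted edgeR p under 0.05. The groups did not overlap in 1 of 8 bodies, that of Mov10l1, while 7.98% of all bodies did so, 3.56% higher in hemicastrated mice, as Mov10l1, and 4.43% lower. The median difference was -0.115 points over the 8 genes, 3 higher and 5 lower, and -0.0801 points over all bodies.

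**Figure D4:**
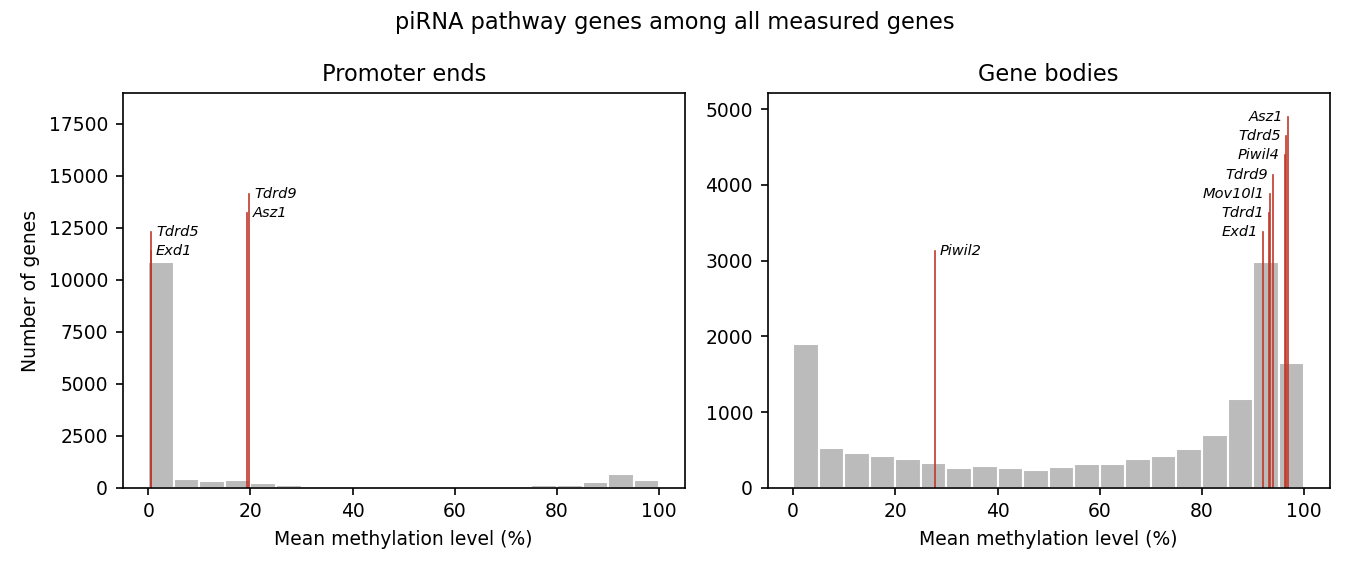
Number of genes by mean methylation level (%) over the 6 libraries, in bins of 5 points, for all measured promoter ends (left) and gene bodies (right), with the piRNA pathway genes as red lines whose height carries no value. Asz1 and Tdrd9 lie outside the large bin of unmethylated promoter ends, and Piwil2 stands apart from the other 7 bodies.

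Mov10l1 had 25 measured positions in its body. The level was 95.3%, 95.4% and 95.9% in the hemicastrated libraries, and 87.9%, 91.4% and 93.6% in the sham libraries. All 3 hemicastrated libraries were above all 3 sham libraries, and the spread was wider among the sham libraries. The means were 95.5% ± 0.306 in hemicastrated and 91.0% ± 2.86 in sham mice (SD, n = 3 each), a difference of 4.59 points that did not pass (edgeR, adjusted p = 1). The difference came from 3 positions. At chr15:89005323 the level was 95.5%, 92.6% and 91.3% in the hemicastrated libraries, and 0%, 47.7% and 36.4% in the sham libraries. At chr15:89032804 it was 100%, 100% and 98.0% in the hemicastrated, and 0%, 40.3% and 55.0% in the sham libraries. At the adjacent chr15:89032805 it was 97.9%, 94.9% and 96.5% in the hemicastrated, and 0%, 45.0% and 56.1% in the sham libraries.

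At each of these positions the hemicastrated libraries were nearly fully methylated, sham 1 had 0 methylated reads, and sham 2 and sham 3 lay in between. In this assay a thymine in place of the cytosine in a mouse's own DNA also reads as unmethylated, and the genotypes of these outbred mice were not analysed here, so at these positions sequence and methylation cannot be told apart, nor in the difference of 4.59 points that rests on them. Sham 1 had 39, 53 and 49 reads there, and with a count of 0 its Wilson 95% intervals reached up to 8.97%, 6.76% and 7.27%. The Wilson 95% intervals had lower bounds of 76.6% or more in the hemicastrated libraries and upper bounds of 70.1% or less in the sham libraries. They cover counting error within a mouse only, and the positions were picked for their wide span over the libraries. The gap between the intervals is therefore no test of a difference between groups. The adjacent pair lie next to each other, as the cytosines on both strands of a CpG do, and in another fragment than the first position. At the other 22 positions, a set chosen after seeing the values, the level was 95.1%, 95.4% and 95.9% in the hemicastrated and 97.1%, 96.2% and 96.7% in the sham libraries. The difference there was -1.19 points, opposite in sign to that of the whole body, and there all 3 hemicastrated libraries were below all 3 sham libraries. The run of 10 positions at chr15:89032801-89032894 had 96.2%, 97.1% and 97.0% in the hemicastrated and 78.1%, 86.8% and 89.9% in the sham libraries. Its difference of 11.8 points had the smallest p among runs of neighbouring positions in these genes and did not pass (edgeR over all runs, adjusted p = 0.617).

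**Figure D5:**
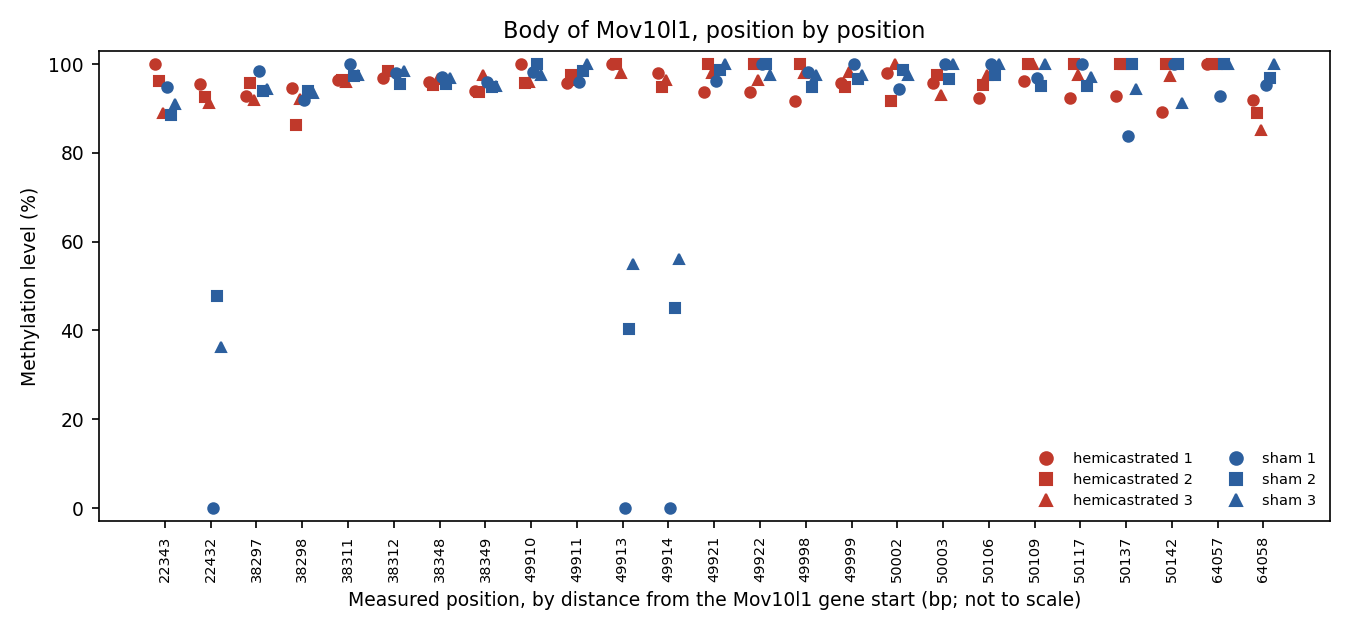
Methylation level (%) of the 25 measured positions of the Mov10l1 body in each library, ordered by distance from the gene start in bp and not to scale (hemicastrated red, sham blue). At 3 positions the hemicastrated libraries lie above 91%, sham 1 at 0 and the other sham libraries between 36.4% and 56.1%, and at the other 22 every library lies at 83.9% or above.

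Piwil2 (chr14:70372477-70436898) encodes a PIWI protein active from fetal germ cells to meiosis, and its body was the exception. The level was 29.2%, 27.2% and 26.9% in the hemicastrated libraries, and 26.3%, 26.8% and 29.6% in the sham libraries. The groups overlapped, and the means were 27.7% ± 1.25 in hemicastrated and 27.6% ± 1.78 in sham mice (SD, n = 3 each; edgeR, adjusted p = 1). The value exceeded that of 28.0% of all bodies. It mixes 2 kinds of position. A run of 7 positions, 7351 to 7603 bp inside the gene, stood at 15.5%, 12.1% and 13.2% in the hemicastrated and 14.6%, 12.5% and 17.2% in the sham libraries. The eighth position, chr14:70421459, stood at 86.2%, 91.6% and 90.8% in the hemicastrated and 88.9%, 92.8% and 81.0% in the sham libraries. The groups overlapped at both. The RefSeq promoter table held no start for Piwil2, so its start was set at a gene boundary. Whether a transcript start lies further inside, as at Tdrd5, was not tested, so this run may not belong to the body. The widest position of the run, at 7351 bp, had 27.9%, 17.9% and 10.2% in the hemicastrated and 14.3%, 18.7% and 16.3% in the sham libraries.

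Among the other bodies, that of Piwil4 had 20 positions and stood at 95.3%, 96.9% and 96.2% in the hemicastrated and 97.0%, 95.1% and 96.6% in the sham libraries. Its run with the smallest p, 1363 to 1429 bp inside the gene, had 96.9%, 89.9% and 98.0% in the hemicastrated and 90.7%, 83.3% and 98.8% in the sham libraries, with overlapping groups (edgeR, adjusted p = 1). Within it, the widest position, chr9:14739249, had 100%, 92.9% and 100% in the hemicastrated and 54.5%, 88.9% and 100% in the sham libraries, from 10 to 18 reads, with overlapping groups. Of 265 positions, this one and the 3 of Mov10l1 spanned 40 points or more over the 6 libraries, a share of 1.51%, against 1.38% of all kept positions. The body of Tdrd1 had 15 positions and stood at 94.5%, 93.3% and 91.4% in the hemicastrated and 95.2%, 93.8% and 90.9% in the sham libraries. Library 3 was lowest in both groups, and 1 position, chr19:56828561, ranged from 70.0% in hemicastrated 3 to 100% in hemicastrated 1, sham 1 and sham 2. Its run with the smallest p, 27894 to 27996 bp inside the gene, had 87.7%, 83.9% and 92.2% in the hemicastrated and 83.3%, 92.2% and 86.4% in the sham libraries, again overlapping (edgeR, adjusted p = 1).

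The body of Tdrd9 had 33 positions spread over the gene and stood at 93.3%, 93.6% and 94.1% in the hemicastrated and 93.8%, 94.7% and 93.8% in the sham libraries. Its smallest p was at 50792 to 50844 bp inside the gene, with 87.8%, 91.8% and 90.2% in the hemicastrated and 91.8%, 93.5% and 94.6% in the sham libraries. Hemicastrated 2 reached the level of sham 1 there, and the difference of -3.33 points did not pass (edgeR, adjusted p = 1). Asz1 was measured in its body only 45488 to 45930 bp inside the gene, at 43 positions, with 96.4%, 97.7% and 96.3% in the hemicastrated and 96.7%, 97.5% and 96.4% in the sham libraries. Its body stood at 96.3% or above in every library, while its promoter end stood at 23.6% or below.

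Tdrd5 and Exd1 had 3 body positions each. Tdrd5 stood at 97.1%, 94.9% and 95.2% in the hemicastrated and 96.6%, 96.6% and 98.7% in the sham libraries. Exd1 stood at 91.0%, 95.2% and 90.3% in the hemicastrated and 89.3%, 93.3% and 92.3% in the sham libraries. The groups overlapped in both genes. The widest body position of Tdrd5, chr1:156292802, ranged from 90.9% to 100%, and that of Exd1, chr2:119523466, from 85.3% to 94.4%. Over all calls, without a read minimum, the body of Piwil1 was methylated in 90.5% of 1809 calls and that of Gtsf1 in 90.9% of 2328.

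Single positions were described without a test. The groups did not overlap at 20 of 265 positions, 5 in promoter ends and 15 in bodies, while 5.18% of all kept positions did so. The span over the 6 libraries had a median of 2.90 points in promoter ends and 7.32 points in bodies. Of 22 runs of neighbouring positions, the groups did not overlap in 3, while 9.56% of all 67528 runs did so. These were the runs of Tdrd5 at 547 to 751 bp, of Mov10l1 at 49910 to 50003 bp and of Exd1 at -384 to -214 bp. They repeat reads described above. The Tdrd5 run holds the same 38 positions as its promoter end, that of Exd1 holds 29 of the 41, and that of Mov10l1 holds the adjacent pair. The runs of Mov10l1 and Exd1 were higher in hemicastrated mice, as 4.58% of all runs, and that of Tdrd5 was lower, as 4.98%. In the Exd1 run the level was 0.645%, 0.389% and 0.511% in the hemicastrated and 0.198%, 0.370% and 0.190% in the sham libraries, with edgeR's adjusted p = 1. Of 67457 tested runs, 0 passed (0%) with edgeR and 0 with limma, and 2909 had an unadjusted edgeR p under 0.05. Of 3223 tested stretches of 2000 bp past genes, where the piRNA pathway genes held 0 positions, 1 passed (0.031%), lower in hemicastrated mice.

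Of 22 further genes of the pathway, 11 had a measured promoter end. Among them 6 were higher and 5 lower in hemicastrated mice, 0 passed, and the groups did not overlap in 1, while 9.62% of all promoter ends did so. That gene was Tdrd12, a partner of Exd1, with 93.1%, 93.3% and 87.0% in the hemicastrated and 85.2%, 85.3% and 86.3% in the sham libraries at 3 positions (edgeR, adjusted p = 0.99). The gene with the next smallest p was Mael, a germ granule protein, with 32.0%, 17.4% and 20.7% in the hemicastrated and 16.3%, 19.5% and 17.8% in the sham libraries. Hemicastrated 1 stood highest there, but Mael is also on the germline list above and is part of its mean. Hemicastrated 1 was also highest at Tex15, Ddx25 and Tdrd3, but it was the lowest library at Fkbp6, with 6.17%. It stood below a sham library at Henmt1 (12.4% against 12.9% in sham 3). The same held at Rnf17 (15.2% against 15.6% in sham 1) and Btbd18 (16.9% against 17.5% in sham 1). Tdrd7, a tudor domain gene, had 5.33%, 9.49% and 19% in the hemicastrated and 14.3%, 24.6% and 12.6% in the sham libraries at 3 positions, with overlapping groups. Promoter ends of Mybl1, Tex15, Ddx25 and Tdrd3 lay below 5%. Mybl1 encodes a transcription factor of meiotic piRNA genes. In the bodies, 11 genes were measured, 7 higher and 4 lower, and 0 passed.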

How the data were processed

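Methylation of the right testis was measured in 3 hemicastrated and 3 sham-operated mice, 1 library each, by paired-end bisulfite sequencing of MspI fragments of 40 to 220 bp, per the labels' protocols. The authors deposited, for each cytosine position, a methylated count, an unmethylated count and a methylation percent, all unnormalized. Per the submitters' processing notes, the tools were TopHat2 2.0.11 and Bismark, on GRCm38, with no role stated. For Bismark's version, for trimming and for duplicate removal, the sources used here give nothing. The files give neither strand nor context. Of the kept positions in RefSeq promoter sequences, 119361 of 119368 lay on a CpG.

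Gene boundaries came from a RefSeq table of GRCm38.p6, and strand from its promoter table, which held 9 of the 10 genes. Of all genes, 27025 had a strand from the promoter table. For 20922 the boundary with more listed positions was taken as the start, and the values over all promoter ends and bodies include such genes. Levels are methylated over all reads, summed over a feature's positions. Features needed at least 3 positions with 10 or more reads in every library. Runs joined positions up to 100 bp apart. Summed counts of all features of a kind were tested with edgeR 4.0.16 in R 4.3.3 by the quasi-likelihood F test, with a column pair per library, a term for methylation by group and Benjamini-Hochberg adjustment at 0.05. A feature with no methylated or no unmethylated read was not tested. No batch is given in the labels. The p-values measure the spread between single mice.

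The text names every one of the 10 genes, and for each the run with the smallest p and the position with the widest range over libraries, plus the 3 further pathway genes with the smallest p at promoter ends. Genes, lists and tests were chosen with earlier results of these data known. Alternatives were 20 reads, both strands summed, 5 positions, other windows and gaps, limma 3.58.1 on log2 ratios with 1 added to each count, a replicate block, each library left out and unweighted means. Same-numbered libraries deviated with correlations of 0.0503, -0.00681 and 0.000338 over gene bodies, and the numbers are not taken as pairs.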

Additional observations from a re-analysis of the deposited data

How the results depend on the processing

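Depth limits these results: 6 promoter ends fell below the read minimum, levels under 1% rest on few methylated reads, and neighbouring positions share reads. The count of promoter ends passing was 0 and became 1 without hemicastrated replicate 3 and 1 without sham replicate 3 (range 0 to 1). That of bodies was 0, or 1 without sham replicate 2 (range 0 to 1). That of far flanks, of which the genes held none, was 1, and 0 with strands summed, 5 positions, limma or the replicate block, and 0 to 1 with a library left out. Under the replicate block the other counts stayed at 0, and no piRNA pathway gene was called. The cause of these changes was not tested.

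Of the recomputed differences of these genes, 129 kept their direction and 19 reversed. Part of the 129 could not reverse, because the replicate block does not enter the difference and requiring 5 positions left each remaining gene's positions unchanged. Other windows mostly held the same positions too. Over the alternatives with a test, edgeR's or limma's adjusted p ranged from 0.956 to 1. With a library left out, differences of either sign arose for the Tdrd9 promoter end (-1.60 to 2.01 points) and for the bodies of Piwil2 (-0.578 to 1.16), Piwil4 (-0.699 to 0.278), Asz1 (-0.520 to 0.225), Exd1 (-0.958 to 1.48) and Tdrd1 (-1.40 to 0.744). The Asz1 body gave 0.155 points at 20 reads, the Piwil4 body 0.279 with strands summed, and the Mov10l1 body -1.19 without its 3 widest positions, a choice made after seeing the data.

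Unweighted means moved the body of Piwil2 to 22.4% in hemicastrated and 23.7% in sham mice, and that of Piwil4 to 95.1% and 94.5%. They gave 95.9% in hemicastrated and 89.0% in sham mice for the Mov10l1 body, and 96.0% and 96.6% for the Asz1 body. For the Exd1 promoter end they gave 0.846% and 0.310%. In Mov10l1, Asz1 and Exd1 the groups were thereby further apart than in the summed levels. Without a read minimum, added after seeing the data, the body of Piwil2 stood at 37.4% in hemicastrated and 35.0% in sham mice, that of Piwil4 at 95.1% and 94.7%, and that of Tdrd5 at 79.1% and 85.8%. The body of Tdrd1 stood at 91.2% in hemicastrated and 92.3% in sham mice, and that of Mov10l1 at 94.8% and 90.7%.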
